A study of Mus musculus with 6 samples.

Results

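Complement is a cascade of plasma proteins, receptors and regulators that tags targets for removal by phagocytes. C1q, the recognition protein of its classical pathway, is assembled from A, B and C chains encoded by C1qa, C1qb and C1qc. Through the proteases C1r and C1s it leads to cleavage of C4 and C3, whose fragments coat a target or signal through receptors such as those for C3a and C5a. In the brain the C1q chains are made chiefly by microglia, and C1q and C3 are known for tagging synapses in development. The 9 genes described here are the C1q chains, the components C3 and C4b, the receptors C3ar1 and C5ar1, and the regulators Cd59a and Serping1. They were taken by symbol from a table of 21937 genes, and 0 of the 9 were absent.

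The samples were mouse cortical cells that had received, by in utero electroporation at embryonic day 14.5, a plasmid for an shRNA against Nat14 (shNat14, 3 libraries) or for a control shRNA (NTC, 3 libraries). Cortices were taken 4 days later, at embryonic day 18.5, and live cells positive for GFP were sorted from both groups, so the controls had also been electroporated and sorted. Strain, sex, litter and the number of embryos behind each library are not given in the labels, so the spread behind the p-values is that between libraries and may be technical. Microglia arise outside the cortex, from the yolk sac, and are not descendants of cortical progenitors. The file is the authors' own comparison and holds no value per library, so values per sample, an SD and the depth are unknown. What can be shown for each gene is its mean level over all 6 libraries, as log2 CPM (counts scaled to library size), its log2 fold change, and its p-values before and after adjustment over all genes.

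Fold changes are shNat14 over NTC. The header of the table does not give that direction, so it was read from Nat14, the target of the shRNA. The authors' deposited table lists Nat14 at -3.31 in log2 units (adjusted p = 1.2e-08). A reversed table would turn every sign below. The neuronal markers Neurod6 and Tubb3 had mean levels of 11.3 and 9.83 log2 CPM in the authors' deposited table, among the highest of the genes listed here. The progenitor marker Fabp7 at 11.0 and the astrocyte marker Slc1a3 at 9.59 were also among the highest, and the neuronal marker Slc17a7 was low at -1.55. These levels therefore do not define the cell types sorted.

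None of the 9 genes was called at the authors' adjusted p under 0.05, a threshold passed by 0.155% of the 21937 genes (34 genes). Unadjusted p was under 0.05 for 4 of the 9, against 6.35% of the 17400 genes above the lowest mean level. These were C1qb, C1qa and Serping1, lower in shNat14 (2.84% of the 17400), and Cd59a, higher in shNat14 (3.51%). The genes were chosen by their place in the cascade with their fold changes and p-values in this comparison known, so neither the count nor any p-value below is independent support for a change. Of the 9 fold changes 7 were negative and 2 positive, and their median was -1.42 (-0.93 over the 5 at or above the median level of all genes). Over the 17400 genes 47.6% were negative and the median was 0.0033.

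The log2 fold changes in the authors' deposited table ran between -1.93 for C3 and 1.08 for Cd59a. The table gives no errors, so an approximate 95% interval was derived from each fold change and its p-value by treating the estimate as normal. These intervals cover the spread between libraries only as far as the authors' test does.

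**Figure D1:**
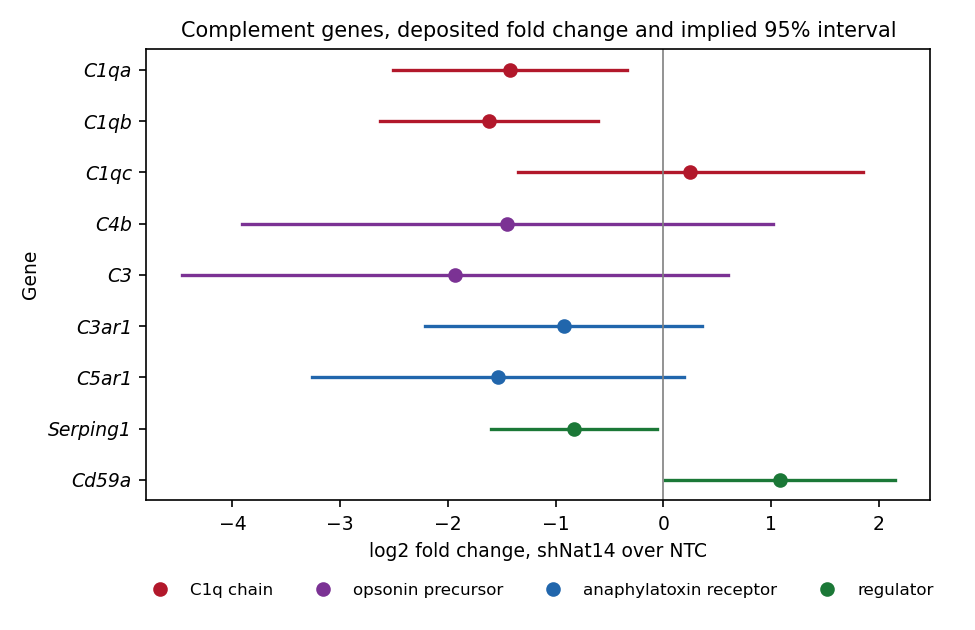
Log2 fold change (shNat14 over NTC, horizontal axis) of each of the 9 complement genes, coloured by role, with the approximate 95% interval implied by the deposited p-value as a bar. The intervals of C1qa, C1qb and Serping1 lie below 0, that of Cd59a starts at 0.0129, and those of the other 5 genes span 0.

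C1qb encodes the B chain of C1q and had the smallest p-value of the 9. Its log2 fold change was -1.62 in the authors' deposited table (implied interval -2.63 to -0.61, unadjusted p = 0.00169, adjusted p = 0.287), which puts shNat14 at 32.5% of NTC. By unadjusted p it ranked 128 among the 21937 genes. With a mean of 2.81 log2 CPM, the fold change corresponds to about 3.44 CPM in shNat14 and 10.6 CPM in NTC, if both groups weigh equally in the mean.

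C1qa, the A chain, stood close to it. In the authors' deposited table its log2 fold change was -1.42 at a mean of 1.96 log2 CPM (implied interval -2.51 to -0.34, unadjusted p = 0.0103, adjusted p = 0.672). That is about 2.11 CPM in shNat14 and 5.65 CPM in NTC by the same reckoning. The intervals of C1qa and C1qb overlap over most of their length.

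C1qc, the C chain, was listed at a log2 fold change of 0.25 with a mean of 0.91 log2 CPM in the authors' deposited table (unadjusted p = 0.758, adjusted p = 1). This corresponds to about 2.05 CPM in shNat14 and 1.72 CPM in NTC. Its implied interval, -1.35 to 1.85, is wide and reaches into those of C1qa and C1qb, so log2 fold changes of -1.35 to -0.61 lie within all 3 intervals. A difference between the chains could not be tested without values per library, and C1qc had the lowest level of the C1q genes.

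The C1q chains join in equal numbers in the assembled protein. Levels were therefore set on a scale per length, as mean CPM per kilobase of annotated exon (GENCODE M21), which assumes even coverage along transcripts. On that scale C1qb stood at 6.45, C1qa at 3.73 and C1qc at 1.56 CPM per kb. The C chain message thus had the lowest level per length in these libraries, with no replicate error to set against the order. No stretch of 50 bases of the longest annotated transcript of C1qa, C1qb or C1qc occurs in a transcript of another gene, so shared sequence of that length does not bear on them. Read length is not stated in the labels, so 50 bases is a nominal length.

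The C1q genes lie side by side on chromosome 4 in the RefSeq annotation of GRCm38.p6, in the order C1qb, C1qc, C1qa. Their listed fold changes differed in sign. The implied interval of C1qc spans 0 and overlaps those of C1qa and C1qb, so its sign is not settled. The 250 bases before the annotated start are printed for the neighbours C1qb and C1qc, whose listed signs were opposite. They are also printed for Cd59a, whose fold change was positive while those of most of the other genes were negative. Capitals mark each match to GAGGAA on either strand (TTCCTC when read on the opposite strand), letters that form the core of sites bound by PU.1, the myeloid transcription factor. The motif was chosen after these windows had been seen. The windows are chr4:136886201-136886450, chr4:136892915-136893164 and chr2:104095551-104095800 in GRCm38.p6, on the minus, minus and plus strand, and are written 5′ to 3′ in the direction of transcription.
C1qb: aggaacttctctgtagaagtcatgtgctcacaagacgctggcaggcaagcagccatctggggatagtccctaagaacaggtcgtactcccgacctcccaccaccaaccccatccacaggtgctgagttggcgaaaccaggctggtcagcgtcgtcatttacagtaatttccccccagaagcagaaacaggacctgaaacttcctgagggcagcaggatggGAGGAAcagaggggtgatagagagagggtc
C1qc: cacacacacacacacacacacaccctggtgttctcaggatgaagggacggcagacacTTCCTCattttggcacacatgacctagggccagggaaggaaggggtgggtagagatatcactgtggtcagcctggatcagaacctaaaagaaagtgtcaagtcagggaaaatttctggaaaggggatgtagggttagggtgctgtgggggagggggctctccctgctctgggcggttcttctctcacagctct
Cd59a: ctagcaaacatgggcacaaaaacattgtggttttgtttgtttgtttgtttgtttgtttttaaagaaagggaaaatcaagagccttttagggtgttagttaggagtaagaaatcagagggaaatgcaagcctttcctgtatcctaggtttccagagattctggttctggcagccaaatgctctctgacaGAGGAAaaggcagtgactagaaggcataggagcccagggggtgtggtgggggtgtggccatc

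Each of these windows held 1 match, which begins 30 bases before the start of C1qb, 193 before that of C1qc on the opposite strand and 62 before that of Cd59a. Of the 9 genes 6 had a window, and 3 of the 6 held the motif, against 23.4% of 32536 different upstream windows over all genes. That share counts windows and not genes. Because the motif was chosen with the printed windows in view, nothing is read from the comparison. The windows of C3, C3ar1 and C5ar1 did not hold these letters. C1qa, C4b and Serping1 had no entry.

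C4b and C3 encode the components cleaved after C1q binds, and both were near the lower end of detection. C4b was listed at -1.45 with a mean of -0.95 log2 CPM in the authors' deposited table (implied interval -3.91 to 1.02, unadjusted p = 0.249). C3, on which all pathways converge, had -1.93 at -1.75 log2 CPM (implied interval -4.47 to 0.60, unadjusted p = 0.135) in the authors' deposited table. Adjusted p was 1 for both. Per length they were the lowest of the 9, at 0.0961 CPM per kb for C4b and 0.058 for C3.

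At such levels a fitted fold change is not a bound. Among the 4133 genes between -3 and 0 log2 CPM, the 5th and 95th percentiles of the log2 fold change were -4.40 and 3.87, and both components lie well inside them. Of the 50-base stretches of the C4b transcript, 35.2% also occur in transcripts of C4a, its close paralog, so reads may have been split between these genes. C4a was listed at 0.71 in the authors' deposited table (unadjusted p = 0.388), with a sign opposite to that of C4b.

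The receptors C3ar1 and C5ar1 bind the small fragments C3a and C5a and are found on microglia and other myeloid cells. C5ar1 was listed at -1.53 in the authors' deposited table (mean 0.99 log2 CPM, implied interval -3.26 to 0.20, unadjusted p = 0.0824), or about 1.02 CPM in shNat14 and 2.94 CPM in NTC. For C3ar1 the authors' deposited table gave -0.93 (mean 2.49 log2 CPM, implied interval -2.21 to 0.36, unadjusted p = 0.157), or about 3.88 CPM in shNat14 and 7.36 CPM in NTC. Both estimates were negative with intervals that span 0, and both adjusted p-values were 1. Per length C3ar1 stood at 1.30 and C5ar1 at 0.77 CPM per kb. Receptors of the microglia list lay on either side, with Itgam at 0.21, Cx3cr1 at 0.702, Csf1r at 0.81 and P2ry12 at 3.96 CPM per kb.

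The regulators had fold changes of opposite sign. Serping1 encodes C1 inhibitor, the serpin that inactivates C1r and C1s, and had the highest level of the 9 both in CPM and per length, 10.2 CPM per kb. Its log2 fold change was -0.83 in the authors' deposited table (mean 4.35 log2 CPM, implied interval -1.60 to -0.06, unadjusted p = 0.0355, adjusted p = 0.949), or about 14.7 CPM in shNat14 and 26.1 CPM in NTC. It is made by fibroblasts and hepatocytes, among other cells.

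Cd59a encodes a membrane-anchored protein that blocks assembly of the membrane attack complex. Its log2 fold change was 1.08 in the authors' deposited table (mean 2.60 log2 CPM, implied interval 0.01 to 2.15, unadjusted p = 0.0473, adjusted p = 0.985), or about 8.22 CPM in shNat14 and 3.89 CPM in NTC. Its neighbouring paralog Cd59b was listed at 0.50 with a mean of -1.56 log2 CPM in the authors' deposited table (unadjusted p = 0.643). The paralogs share 3.98% of the 50-base stretches of the Cd59a transcript.

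Set side by side, the C1q chains had a median log2 fold change of -1.42 (range -1.62 to 0.25), and the other 6 genes had a median of -1.19 (range -1.93 to 1.08). The ranges overlap, and each set holds 1 positive value. Leaving out members with levels below that of the median gene gave medians of -1.52 for 2 chains and -0.83 for 3 others. The filter took out C1qc, the positive chain, and C3, C4b and C5ar1, which were negative. The listed values left did not overlap, -1.62 and -1.42 against -0.93 to 1.08. The implied intervals of both chains still overlapped those of C3ar1 and Serping1. Unadjusted p was under 0.05 for 2 of the 3 chains and 2 of the other 6 genes, against 6.35% of the 17400 genes above the lowest level. All 9 genes were chosen with these p-values known, so the counts are no independent support for a change. A difference between the sets was not tested.

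**Figure D2:**
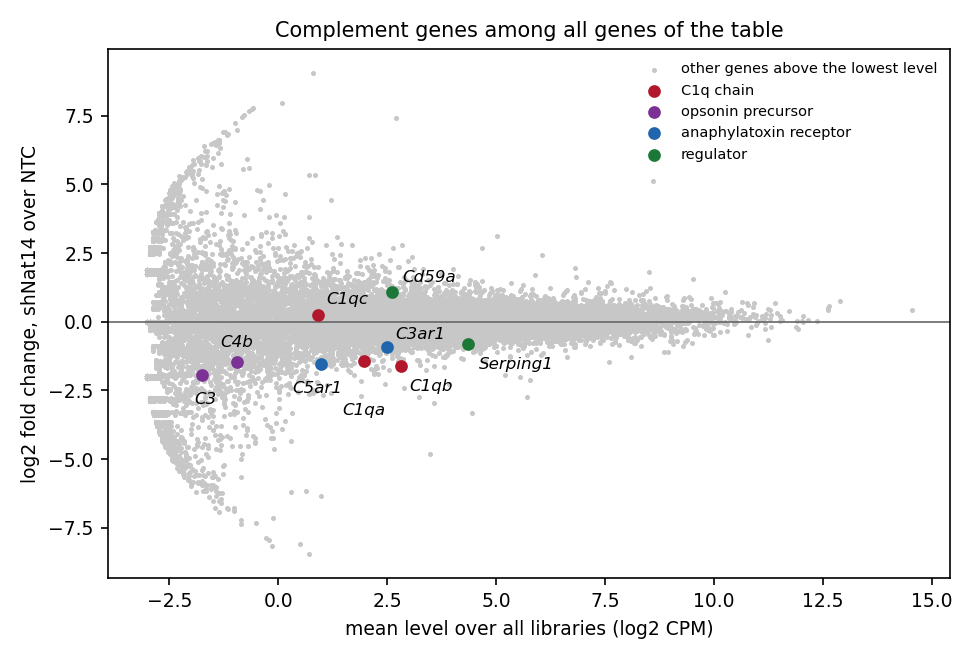
Log2 fold change (vertical axis) against mean level in log2 CPM (horizontal axis) for the 17400 genes above the lowest level, with the 9 complement genes coloured by role. The spread of all genes widens toward low levels, where C3 and C4b lie, and C1qb and Cd59a lie near the lower and upper edge of the cloud at their level.

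The spread of fold changes over all genes differed with level, so the complement genes were set beside genes of similar level. Between 2 and 4 log2 CPM, where C1qb, C3ar1 and Cd59a lie, the 5th and 95th percentiles over 3148 genes were -0.81 and 0.94, so all 3 lie outside that range. C1qa, C5ar1 and C1qc belong to the 2264 genes between 0 and 2 log2 CPM, with percentiles of -1.36 and 1.48. C1qa and C5ar1 lie just outside and C1qc inside. For Serping1, among 4196 genes between 4 and 6 log2 CPM, they were -0.55 and 0.64, and Serping1 was below the lower value. The complement genes were chosen with their fold changes known. Lying outside these percentiles is therefore a description of the chosen genes and no independent support for a change.

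A wider list of the cascade held 53 genes, of which 51 were in the table and 44 were above its lowest level. None was called at adjusted p under 0.05. At unadjusted p under 0.05 there were 4 lower and 3 higher, against 2.84% lower and 3.51% higher of the 17400 genes above the lowest level. Without the 9 genes, which the list includes, the count was 1 lower and 2 higher of 35. The median log2 fold change was -0.52 over the 44 and -0.46 over the 35. Of the 17400 genes 47.6% were negative, as were 52.0% of the 4133 genes between -3 and 0 log2 CPM. These shares stand beside the counts by role below, which include the 9 genes.

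Among recognition molecules and initiating proteases, 8 of 11 genes were negative, and C1qa and C1qb were the 2 with unadjusted p under 0.05. Masp1, a protease of the lectin pathway, had the highest mean of this role, 4.43 log2 CPM not scaled for length, and was listed at -0.46 in the authors' deposited table (unadjusted p = 0.23). The C1 proteases had low levels. C1s stood at -0.49 with a mean of -0.42 log2 CPM and C1ra at -1.77 with a mean of -2.02 log2 CPM in the authors' deposited table.

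Among convertase components, 5 of 6 genes were negative. C2, the protease of the classical C3 convertase, had the smallest p-value of this role and was listed at -3.09 with a mean of -0.38 log2 CPM in the authors' deposited table (unadjusted p = 0.00173, adjusted p = 0.29). Cfp, properdin, which stabilizes the alternative convertase, stood at -0.34 with a mean of 2.38 log2 CPM, and factor B, Cfb, at -0.62 with a mean of 0.75 in the authors' deposited table.

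The terminal components were at low levels throughout, none above -0.15 log2 CPM, with 2 of 5 genes negative and 3 positive. Hc, which encodes C5, had the highest log2 CPM of them and was listed at 3.24 in the authors' deposited table (unadjusted p = 0.00401, adjusted p = 0.425), opposite in sign to its receptor gene C5ar1. C8g stood at 0.08 and C8a at 0.39, whereas C6 stood at -2.85 and C8b at -4.40, in the authors' deposited table. C9 was at the lowest level, and C7 had no row under its own or an older symbol.

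Among regulators, 8 of 14 genes were negative, 5 were positive and 1 was at 0. Clu, clusterin, and Cr1l, the rodent membrane regulator Crry, had mean levels of 6.51 and 6.01 log2 CPM and were listed at -0.56 and -0.22 in the authors' deposited table (unadjusted p = 0.0983 and p = 0.403). Csmd3, a large neuronal protein with complement control domains, stood at 1.34 (unadjusted p = 0.0375, adjusted p = 0.962), and was with Cd59a the second regulator higher at that threshold in the authors' deposited table. Among receptors, 4 of 8 genes were negative and 4 positive, with none at unadjusted p under 0.05. Cd93, a receptor of endothelium and myeloid cells, had the next highest log2 CPM of the receptors after C3ar1 and was listed at 1.27 in the authors' deposited table (unadjusted p = 0.216).

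**Figure D3:**
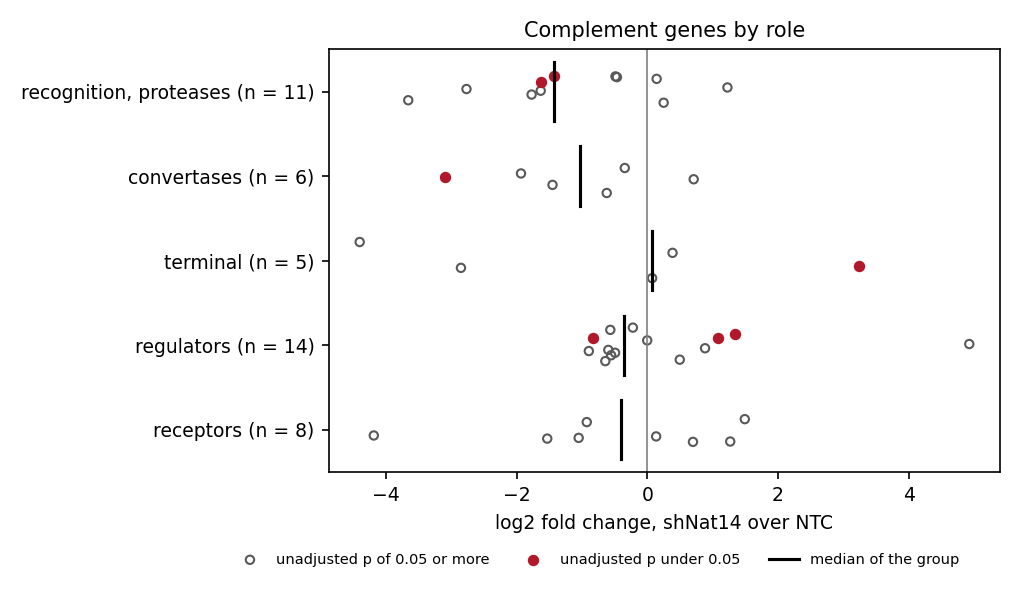
Log2 fold change (horizontal axis) of the 44 complement genes above the lowest level, by role. Filled points have an unadjusted p under 0.05 and bars mark the median of each role, which is -1.42 for recognition molecules and proteases and -0.36 for regulators.

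The C1q domain is not confined to complement. A further 24 genes with such a domain were examined, among them the synaptic organizers of the cerebellin family, and 21 were above the lowest level. At unadjusted p under 0.05, 1 was lower and 2 were higher, against 2.84% and 3.51% of the 17400 genes above that level. None was called, and the median log2 fold change over the 21 was 0.07. Cbln1, a cerebellin, was listed at 1.59 in the authors' deposited table (unadjusted p = 0.0321). The others at that threshold, Emilin2 (-6.03) and Mmrn1 (6.96), matrix proteins with the domain, were at low levels in the authors' deposited table.

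Markers of cells that make complement proteins were examined beside these genes. Over the 17400 genes above the lowest level, 47.6% were negative. At unadjusted p under 0.05, 2.84% were lower and 3.51% higher, and 0.155% of the 21937 genes were called. These shares stand beside each marker list below. Of 27 microglia markers, which leave out C1q but include the complement receptor gene Itgam, all above the lowest level, 24 were negative and 3 positive, with a median of -0.74. None was called, and 4 had an unadjusted p under 0.05, all lower. These were Tmem119 at -2.31 (p = 0.0248), Csf1r at -1.48 (p = 0.0406), Aif1 at -1.46 (p = 0.041) and Ctss at -1.02 (p = 0.0195) in the authors' deposited table. Cx3cr1, the fractalkine receptor, stood at -1.56 and P2ry12, a purinergic receptor, at -0.70 in the authors' deposited table. C1qa, C1qb, C1qc, C5ar1 and C3ar1 lie within the range of these markers, -2.31 to 0.70. Serping1, C3 and C4b lie within it as well, and Cd59a lies above it. So wide a range does not set the C1q chains and receptors apart from the other genes. In bulk samples the share of microglia among the sorted cells, whatever set it, and the RNA per microglial cell cannot be told apart. The part of the microglial signal in the complement values was not tested.

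Markers of other myeloid cells were examined in the same way. Of 8 markers of border macrophages, which also make C1q, none had an unadjusted p under 0.05, and the median was -0.22. Ms4a7 had the smallest p of these, and was listed at -0.89 in the authors' deposited table (p = 0.229), whereas Pf4 and Lyve1 stood at 0.08 and 0.19. Of 9 neutrophil and monocyte genes 6 were negative and 3 positive. Lyz2 at -0.95 (p = 0.0204) and Ngp at -0.98 (p = 0.0485) were lower at that threshold in the authors' deposited table. Elane, a neutrophil protease, and Mpo, myeloperoxidase, stood at 1.98 and 1.94, and the monocyte receptor Ccr2 at 1.09, in the authors' deposited table, none with an unadjusted p under 0.05. The median of the 9 was -0.35, and -0.84 over those at or above the median level of all genes (1.71 log2 CPM).

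Serping1, C3 and C4b can come from non-myeloid cells. Of 13 markers of meningeal fibroblasts, 9 were negative, with a median of -0.63, and 2 had an unadjusted p under 0.05, Col1a2 at -1.02 (p = 0.0358) and Slc6a13 at -2.23 (p = 0.0463) in the authors' deposited table. Among 16 astrocyte markers 13 were negative, with a median of -0.67, 7 were lower at unadjusted p under 0.05, and Agt, angiotensinogen, was called, at -6.33 with an adjusted p = 6.99e-06 in the authors' deposited table. Agt had a mean of 0.98 log2 CPM. Apoe, the lipid carrier, had the next smallest p of these markers and was not called. It was listed at -1.10 in the authors' deposited table (unadjusted p = 0.00021, adjusted p = 0.0864). The part of these cells in the values of Serping1, C3 and C4b was not tested.

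Endothelial markers were mostly positive, as were Cd59a and Cd93. Of 11 such genes 10 were positive, with a median of 1.89, and Emcn at 4.98 (p = 0.0137) and Tek at 4.43 (p = 0.0397) had an unadjusted p under 0.05 in the authors' deposited table. Cldn5, a tight junction protein, was the single endothelial marker at or above the median level of all genes and was listed at 0.18 in the authors' deposited table (p = 0.821). Whether endothelial RNA takes part in the values of Cd59a was not tested. Markers of cortical projection neurons and of progenitors had medians of 0.15 and -0.10, with none of 13 and none of 10 at unadjusted p under 0.05. Eomes, of intermediate progenitors, had the smallest p of the progenitor list (-0.54, p = 0.144) in the authors' deposited table.

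**Figure D4:**
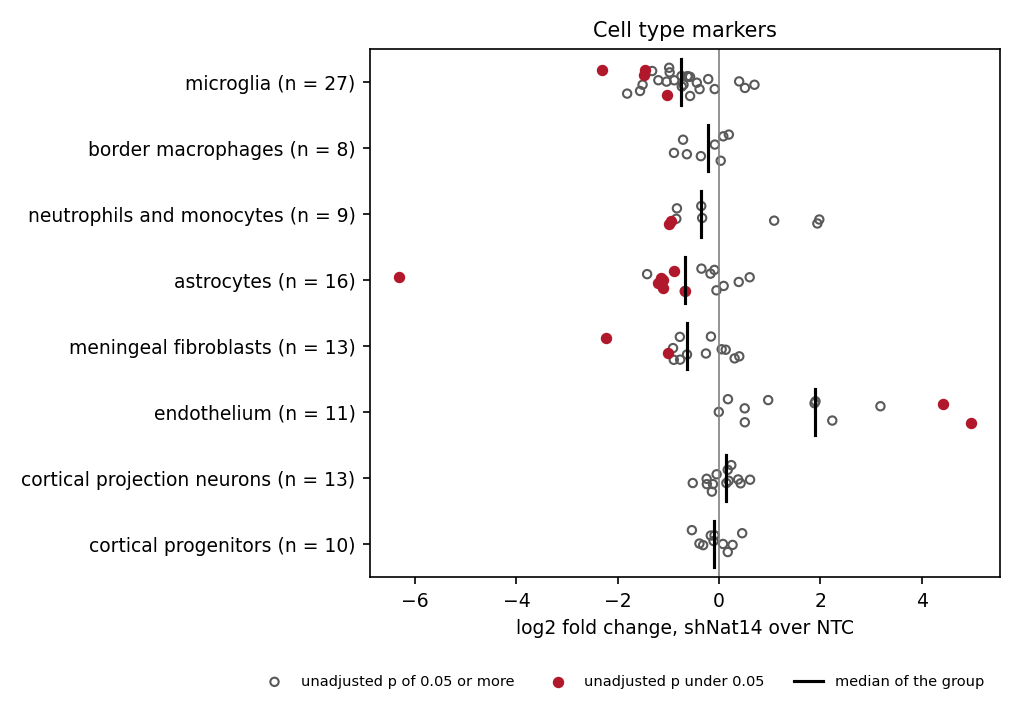
Markers of 8 cell types by log2 fold change (shNat14 over NTC, horizontal axis), each point a gene above the lowest level. Filled points have an unadjusted p under 0.05 and bars mark medians, which lie at -0.74 for microglia, -0.22 for border macrophages and 1.89 for endothelium.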

How the data were processed

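The data are RNA-seq of 3 shNat14 and 3 NTC libraries. The authors deposited a table of their own comparison. Per the file headers it holds log2 fold changes, mean levels in log2 CPM, p-values and a false discovery rate. HTSeq 0.5.4p1, DESeq, TopHat2 2.0.8 and SAMtools 0.1.19 are listed without a role in the submitters' processing notes, beside the human build hg19, whereas the samples and symbols are of mouse. The build, test, filters and prior count are thus unresolved, and sequences and lengths come from GRCm38 references. The deposited p-values were not refitted. Benjamini-Hochberg adjustment of them differed from the deposited values by at most 4.05e-05.

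Implied errors are the absolute fold change divided by the normal quantile of the p-value. A simulation checked the arithmetic only, because its p-values came from the same normal model. It does not show how well the intervals suit the authors' test. Levels per group assume equal weights and are given for the 7 genes above 0 log2 CPM. A prior count in the deposited levels and fold changes, if the authors used it, would raise low levels and shrink their fold changes. The lists hold 193 entries, of which 188 were found under the symbol given, 3 under older names and 2 in no row. The members and lists were chosen with earlier results of these data known. Named genes are all 9 members, wider complement genes at unadjusted p under 0.05 or with the highest log2 CPM of a role, and the markers with the smallest p. The values of 1 marker that this rule names are left out. Others, such as Cd59b, C1s, C1ra, C6, C8b, C9, C7, Elane, Mpo, Ccr2, Cbln1, Emilin2, Mmrn1, Pf4, Lyve1, Cldn5, Neurod6, Tubb3, Fabp7, Slc1a3 and Slc17a7, were named after their values were seen. With 1 contrast and no values per library, no gene of similar pattern could be sought. Computations used Python 3.11.15, numpy 2.4.6, pandas 2.3.3, scipy 1.17.1 and matplotlib 3.10.9. Alternatives were other thresholds, adjustments, centrings and level filters.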

Additional observations from a re-analysis of the deposited data

How the results depend on the processing

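The count of called complement genes stayed at 0 at adjusted p under 0.10, after Bonferroni correction and when adjusted over genes above the lowest or at or above the median level, while 4 had an unadjusted p under 0.05. That count was 1 at p under 0.01 (C1qb), 5 at p under 0.10 and 3 with an absolute log2 fold change of at least 1. It was 4 among members at or above the median level, where 5.91% of all genes had p under 0.05. Shares over all genes were not computed at p under 0.01 or 0.10 or with the fold change limit, so counts there have no background. The median of the 9 genes was -0.93 for members at or above the median level and -0.93 as a mean, against -1.42. In the wider list 3 genes had p under 0.01 (C1qb, C2 and Hc) and 3 had p under 0.05 without the 9 genes (a setting added once the data were known). Centring moved fold changes by at most 0.03 and turned no sign among the 9 genes. The median of border macrophage markers was 0.0011 at or above the median level, where the endothelial list kept 1 gene, Cldn5, at 0.18. No paired analysis was possible because single libraries are not resolved in the deposited comparison. For the same reason leaving out replicates and a second count tool were not run. Depth is unknown, and the low levels of C3, C4b and C1qc limit what their fold changes can show.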
